A study of Homo sapiens with 12 samples.

Results

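The 10 genes described here belong to the chaperone machine that steroid receptors depend on, and were followed across the 4 groups of a testosterone (T) study in prostate cancer cells. They were chosen as a list by symbol, namely FKBP5, FKBP4, PTGES3, HSP90AA1, HSP90AB1, HSPA8, STIP1, ST13, DNAJB1 and BAG1, and all 10 were found among the 58381 genes of the count files and passed the filter on low counts that left 19162 genes for testing. The cells derive from VCaP, a human prostate cancer line whose growth depends on androgens. VCaP-T is a subline kept long term at 10 nM T in medium with charcoal-stripped serum, and VCaP-CT is a further subline, grown out of VCaP-T at 0.1 nM T and able to proliferate there. The 12 poly(A) RNA libraries come 3 to a group: VCaP-CT given 10 nM T for 48 h (rechallenged VCaP-CT), VCaP-CT in its own 0.1 nM T, VCaP-T placed in 0.1 nM T for 48 h (depleted VCaP-T), and VCaP-T in its own 10 nM T. The passage number was 73 for VCaP-CT and 84 for VCaP-T. Each line is 1 subline, so a difference between the lines cannot be told apart from the culture history of either. The sources do not say that the replicates were separate cultures, and the p-values below then measure only the spread between these libraries, which may be technical.

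An unliganded steroid receptor is folded by HSP40 and HSP70, passed to HSP90 by a bridging protein, and held there by p23 and an immunophilin in the form that can bind hormone. FKBP5 (FKBP51) and FKBP4 (FKBP52) are related immunophilins that compete for the same tail of HSP90: FKBP4 favours receptor activity, while FKBP5 damps the glucocorticoid receptor. FKBP5 is also one of the best known genes switched on by androgens and glucocorticoids, so its RNA is often used as a readout of the receptors it serves.

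Between 30.2 and 40.8 M fragments were counted in genes per library. Depleted VCaP-T replicate 2 differed from the other 2 libraries of its group, with correlations of log2 levels across genes of 0.965 and 0.970, where all other replicate pairs had at least 0.993. In that library PTGES3 stood at 27617 normalized counts and BAG1 at 5090, against 16708 and 17538 for PTGES3 and 2515 and 2716 for BAG1 in replicates 1 and 3 of depleted VCaP-T. Member results that turn on this library are therefore given with and without it. The 8 luminal prostate markers used were all tested, and their summed level, most of it KLK2, was higher with testosterone in both lines. It was 459523 to 483473 normalized counts in rechallenged VCaP-CT against 290871 to 295684 in VCaP-CT at 0.1 nM T. In depleted VCaP-T it was 301524 to 339781, against 496326 to 507754 in VCaP-T at 10 nM T. Single markers differed more: KLK3 had a mean of 1669 in VCaP-CT at 0.1 nM T and 78770 in VCaP-T at 10 nM T. FOLH1 went the other way, with 1655 in depleted VCaP-T against 150 in VCaP-T at 10 nM T. Of the 8, 4 rose, 1 fell and 3 did not pass on rechallenge, where 14.3% of all genes passed. On depletion 3 fell, 1 rose and 4 did not pass, where 9.97% of all genes passed. HOXB13 had a mean of 14719 in depleted VCaP-T against 12577 in VCaP-T at 10 nM T. KLK2 had 175844 and 314262 there. KRT5 and TP63 (basal), COL1A2 and DCN (fibroblast), PTPRC and CD3E (blood) and CDH5 (endothelium) reached at most 11 counts in any library. The other basal and endothelial markers were higher. From rechallenged VCaP-CT, VCaP-CT at 0.1 nM T and depleted VCaP-T to VCaP-T at 10 nM T, KRT14 (basal) had means of 114, 54.1, 85.9 and 185. In that order VWF (endothelium) had 394, 232, 405 and 507, and PECAM1 (endothelium) 91.5, 68.4, 123 and 37.2. On depletion KRT14 fell and PECAM1 rose, and both passed. The summed fibroblast list, of which LUM, COL1A1 and PDGFRB were high enough to be tested, also moved with testosterone, in the other direction. It summed to 118 to 123 normalized counts in rechallenged VCaP-CT against 976 to 1086 in VCaP-CT at 0.1 nM T, and to 656 to 770 in depleted VCaP-T against 222 to 286 in VCaP-T at 10 nM T. The blood list, which here is the LYZ level, summed to 112 to 519 in VCaP-CT and to 2340 to 2819 in VCaP-T. The part of these markers in the results was not tested. In bulk RNA, fewer cells of a kind and less RNA per cell cannot be told apart.

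FKBP5 (ENSG00000096060.14, chromosome 6, 35573585 to 35728583 on the minus strand of GRCh38) was the member that followed testosterone most closely in both lines. It had 28773, 28592 and 27632 normalized counts (counts scaled by TMM) in the 3 libraries of rechallenged VCaP-CT, against 5113, 5186 and 5048 in VCaP-CT at 0.1 nM T. It had 6300, 4689 and 6551 in depleted VCaP-T, against 18282, 18596 and 19500 in VCaP-T at 10 nM T. Every library at 10 nM T was far above every library at 0.1 nM T, and VCaP-CT spanned the wider range. On rechallenge FKBP5 rose 5.54-fold (log2 fold change 2.47 with an SE of 0.11, adjusted p = 5.13e-08 from edgeR). On depletion it fell by 1.68 on the log2 scale (SE 0.11, adjusted p = 1.56e-06 from edgeR), and by 1.55 without depleted replicate 2. Of the 19162 genes tested it had the 98th highest log2 fold change on rechallenge and the 76th lowest on depletion.

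The groups ran, from high to low FKBP5, rechallenged VCaP-CT, VCaP-T at 10 nM T, depleted VCaP-T and VCaP-CT at 0.1 nM T. At 10 nM T the VCaP-CT level was 1.51-fold that of VCaP-T (log2 fold change 0.59 with an SE of 0.11, adjusted p = 0.000943 from edgeR). At 0.1 nM T the lines did not differ beyond their spread in the 12 libraries (log2 fold change -0.19, 95% interval -0.43 to 0.04, adjusted p = 0.169 from edgeR), and depleted replicate 2 lay below all VCaP-CT libraries while replicates 1 and 3 lay above them. Without that replicate VCaP-CT was lower (log2 fold change -0.33, adjusted p = 2.23e-06 from edgeR). With each line in its own medium, where line and testosterone differ together, FKBP5 was 3.67-fold lower in VCaP-CT (adjusted p = 7.3e-08 from edgeR). Whether the difference between the lines in their response to testosterone passed depended on the same library and on the method. The response of VCaP-CT exceeded that of VCaP-T by 0.79 on the log2 scale (SE 0.15, 95% interval 0.45 to 1.12, adjusted p = 0.0176 from edgeR), which did not pass 0.01, and by 0.92 (SE 0.06, adjusted p = 2.26e-09) without that library. With all 12 libraries it passed by DESeq2 (0.78, adjusted p = 0.000121) and, in edgeR, with no filter on low counts (0.77, adjusted p = 0.0048).

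**Figure D1:**
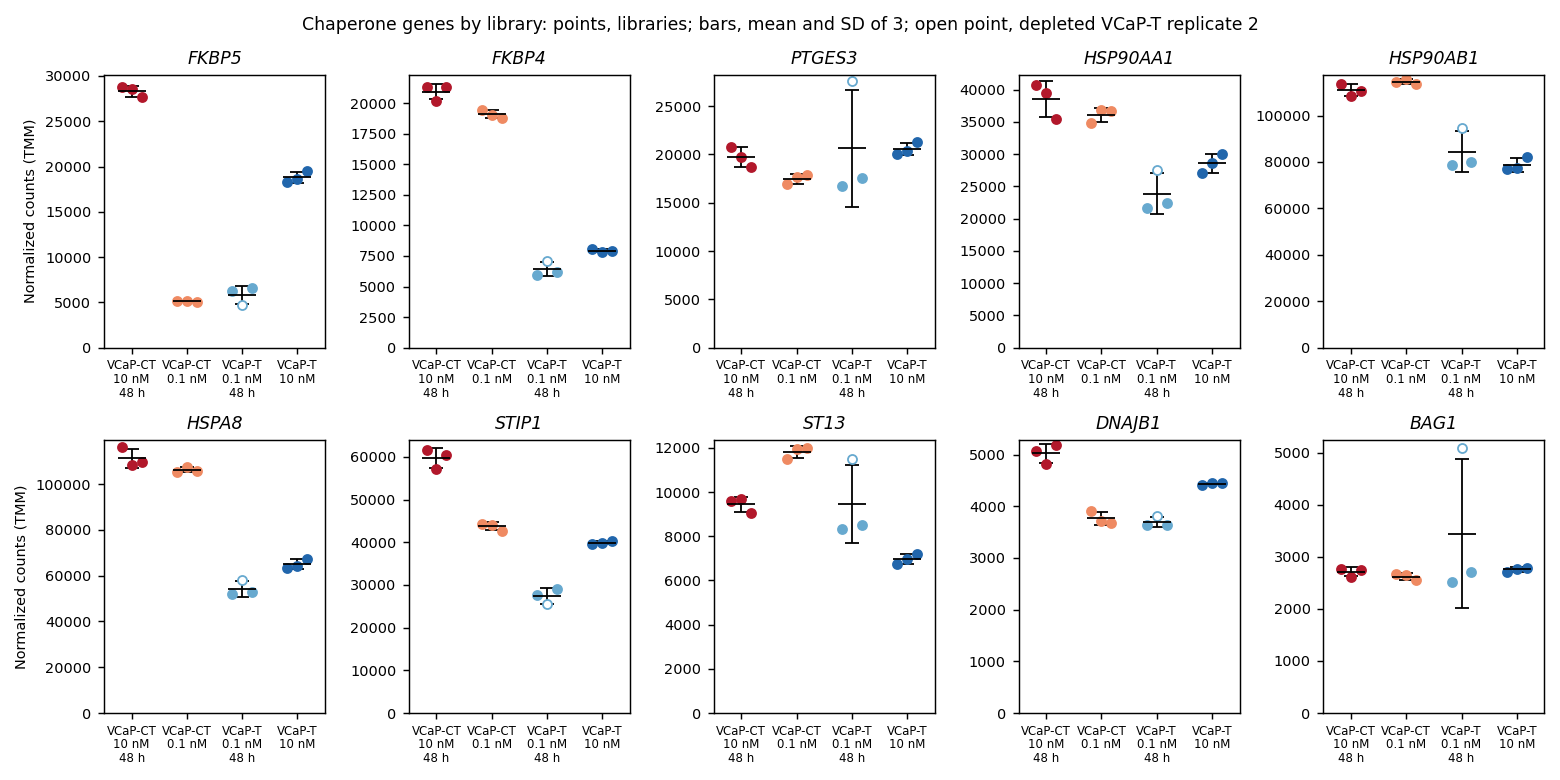
Normalized counts (TMM) of the 10 chaperone genes; each point is a library, grouped from left to right as rechallenged VCaP-CT, VCaP-CT at 0.1 nM T, depleted VCaP-T and VCaP-T at 10 nM T, and bars give the mean and SD of 3. FKBP5 is high in both 10 nM T groups, FKBP4 is high in both VCaP-CT groups, and the open point, depleted VCaP-T replicate 2, is far from its group for PTGES3 and BAG1.

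FKBP5 is shown with the 250 bases before its more upstream start, as the member that moved most with testosterone (RefSeq, GRCh38.p14, chr6:35728584-35728833, minus strand). This stretch holds no exon of the files' annotation.
FKBP5: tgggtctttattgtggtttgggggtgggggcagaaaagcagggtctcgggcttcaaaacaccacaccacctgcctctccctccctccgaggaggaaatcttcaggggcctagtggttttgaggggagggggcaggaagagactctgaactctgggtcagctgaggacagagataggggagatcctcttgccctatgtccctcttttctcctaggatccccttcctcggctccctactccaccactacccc
Neither AGAACA, the 6-base unit of the androgen response element, nor a heat shock element (described below with the HSP90 genes) was found in it on either strand. Neither was found before the other start searched, at base 35688915, where annotated exons cover 27 of the 250 bases. AGAACA occurs before 12.4% of the 35116 starts of the RefSeq table. The best known hormone response elements of FKBP5 lie in its introns, outside the stretch printed.

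FKBP4 (ENSG00000004478.7, chromosome 12, 2794953 to 2805423), the immunophilin that favours receptor activity, separated the lines instead. It had 21284, 20211 and 21289 normalized counts in rechallenged VCaP-CT against 8085, 7791 and 7935 in VCaP-T at 10 nM T. It had 19402, 19067 and 18750 in VCaP-CT at 0.1 nM T against 5944, 7074 and 6230 in depleted VCaP-T. No library of either VCaP-CT group came near any VCaP-T library. The difference was 2.64-fold at 10 nM T (log2 fold change 1.40 with an SE of 0.08, adjusted p = 6.13e-08 from edgeR) and 2.97-fold at 0.1 nM T (log2 fold change 1.57 with an SE of 0.08, adjusted p = 1.76e-08 from edgeR). FKBP4 was the single member past the study's thresholds in both comparisons at matched testosterone. Those thresholds also ask that the log2 fold change exceed 1 in size and that group medians lie over 13 normalized counts apart. Of the genes tested, 10.2% met them at 10 nM T (3.17% as higher in VCaP-CT) and 12.3% at 0.1 nM T (3.62% as higher). Testosterone moved FKBP4 little within either line: its log2 fold change was 0.13 on rechallenge (95% interval -0.03 to 0.30) and -0.31 on depletion (adjusted p = 0.0145 from edgeR). Without depleted replicate 2 both passed, at 0.14 (adjusted p = 0.00495) and -0.38 (adjusted p = 9.75e-07). By DESeq2 the depletion value passed with all 12 libraries (-0.32, adjusted p = 0.000321). Of the exon bases of FKBP4, 11.4% overlap another gene, and counting did not use the strand.

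Set per kilobase of exon, so that the genes can be compared, FKBP5 had 75.6 CPM per kb in rechallenged VCaP-CT, 13.7 in VCaP-CT at 0.1 nM T, 15.6 in depleted VCaP-T and 50.2 in VCaP-T at 10 nM T. FKBP4 had 115 CPM per kb in rechallenged VCaP-CT, 104 in VCaP-CT at 0.1 nM T, 35.1 in depleted VCaP-T and 43.5 in VCaP-T at 10 nM T. The ratio of FKBP5 to FKBP4 on this scale was 0.660 ± 0.0285 in rechallenged VCaP-CT, 0.131 ± 0.00211 in VCaP-CT at 0.1 nM T, 0.451 ± 0.111 in depleted VCaP-T and 1.15 ± 0.0485 in VCaP-T at 10 nM T (SD, n = 3 each). The ranges of the 4 groups did not overlap. FKBP5 exceeded FKBP4 only in VCaP-T at 10 nM T, at 1.10 to 1.20 in its 3 libraries, and the ratio was lowest in VCaP-CT at 0.1 nM T, at 0.128 to 0.133. The ratio was formed after the levels had been seen and is given as a description, without a test.

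HSP90AA1 and HSP90AB1 encode the stress-inducible and the constitutive cytosolic HSP90, which hold the receptor. HSP90AB1 (ENSG00000096384.19, chromosome 6, 44246166 to 44253888) had 113622, 108546 and 110504 normalized counts in rechallenged VCaP-CT against 76767, 77271 and 82052 in VCaP-T at 10 nM T, and 114546, 115646 and 113720 in VCaP-CT at 0.1 nM T against 78675, 94641 and 79845 in depleted VCaP-T. All VCaP-CT libraries were above all VCaP-T libraries at the matched dose. It was 1.41-fold higher in VCaP-CT at 10 nM T (adjusted p = 0.000596 from edgeR) and 1.36-fold higher at 0.1 nM T (adjusted p = 0.00115 from edgeR). HSP90AA1 (ENSG00000080824.18, chromosome 14, 102080738 to 102139699) had 40759, 39390 and 35422 in rechallenged VCaP-CT against 27097, 28566 and 30056 in VCaP-T at 10 nM T, and 34835, 36788 and 36672 in VCaP-CT at 0.1 nM T against 21603, 27577 and 22446 in depleted VCaP-T. The groups again did not overlap at either dose, and it was 1.35-fold higher in VCaP-CT at 10 nM T (adjusted p = 0.00477 from edgeR) and 1.51-fold higher at 0.1 nM T (adjusted p = 0.000475 from edgeR). The HSP90AA1 call at 10 nM T was lost in 5 of the 12 fits that left out 1 library, which were those without any 1 of the 3 VCaP-T libraries at 10 nM T or without rechallenged VCaP-CT replicate 1 or 2 (adjusted p 0.0111 to 0.0274).

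Neither HSP90 gene passed the test for a change with testosterone in the 12 libraries. On rechallenge the log2 fold change was 0.09 for HSP90AA1 (95% interval -0.12 to 0.31) and -0.05 for HSP90AB1 (95% interval -0.23 to 0.13). On depletion it was -0.26 for HSP90AA1 (adjusted p = 0.0842 from edgeR) and 0.10 for HSP90AB1 (95% interval -0.08 to 0.28). Without depleted replicate 2, HSP90AA1 fell on depletion by 0.38 (adjusted p = 2.73e-05 from edgeR), and HSP90AB1 was at 0.01 (95% interval -0.07 to 0.09). With each line in its own medium, HSP90AA1 had a log2 fold change of 0.34 (adjusted p = 0.0163 from edgeR), which passed without that library (adjusted p = 7.26e-06). This difference also passed by DESeq2 with all 12 libraries (0.33, adjusted p = 0.00811). Per kilobase of exon, HSP90AA1 stood at 0.197 ± 0.0132 of HSP90AB1 in rechallenged VCaP-CT, 0.179 ± 0.00545 in VCaP-CT at 0.1 nM T, 0.160 ± 0.00481 in depleted VCaP-T and 0.206 ± 0.00502 in VCaP-T at 10 nM T (SD, n = 3 each).

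HSPA8 (ENSG00000109971.13, chromosome 11, 123057489 to 123063230), the constitutive HSP70 that loads the receptor, was after FKBP4 the member with the widest difference between the lines at matched testosterone. It had 116116, 108167 and 109552 normalized counts in rechallenged VCaP-CT against 63421, 64394 and 67366 in VCaP-T at 10 nM T. It had 105508, 107703 and 105817 in VCaP-CT at 0.1 nM T against 51870, 58253 and 52858 in depleted VCaP-T. The lines were far apart at both doses, 1.71-fold at 10 nM T (log2 fold change 0.77 with an SE of 0.07, adjusted p = 7.43e-06 from edgeR) and 1.96-fold at 0.1 nM T (log2 fold change 0.97 with an SE of 0.08, adjusted p = 9.18e-07 from edgeR). Its response to testosterone did not pass the test in either line, with log2 fold changes of 0.07 on rechallenge (95% interval -0.10 to 0.23) and -0.26 on depletion (adjusted p = 0.0278 from edgeR). The depletion value passed by DESeq2 with all 12 libraries (log2 fold change -0.28, adjusted p = 0.000429). In edgeR it passed without depleted replicate 2 (log2 fold change -0.32, adjusted p = 6.83e-06). With that library left out, the testosterone response of HSPA8 and of FKBP4 was also smaller in VCaP-CT than in VCaP-T, each by 0.25 on the log2 scale (adjusted p = 0.00422 and 0.00492).

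Matches to the heat shock element, the site of the heat shock factor HSF1, lie before a start of each of HSP90AA1, HSP90AB1, HSPA8 and DNAJB1, and are printed because the first 3 of these genes were all higher in VCaP-CT. The search covered the 250 bases before each start, on both strands, for alternating GAA and TTC units that stand 2 bases apart. Promoters were found for 8 members with 15 starts (FKBP4 and ST13 were not matched). Capitals mark the units and the bases between them. The stretches read 5′ to 3′ along the gene's strand.
HSP90AA1, chr14:102087105-102087134, minus strand: tcTTCCGGAAGGTTCgggaggcTTCTGGAA
HSP90AB1, chr6:44247770-44247799, plus strand: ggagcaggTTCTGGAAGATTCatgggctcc
HSP90AB1, chr6:44247823-44247852, plus strand: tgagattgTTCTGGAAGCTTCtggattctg
HSPA8, chr11:123062345-123062374, minus strand: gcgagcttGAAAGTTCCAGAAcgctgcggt
HSPA8, chr11:123062170-123062199, minus strand: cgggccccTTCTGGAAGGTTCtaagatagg
DNAJB1, chr19:14518456-14518485, minus strand: cgggcggggcgGAAGGTTCtggagggggct
DNAJB1, chr19:14518426-14518455, minus strand: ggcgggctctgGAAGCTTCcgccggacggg
The form with 3 units lies 88 bases before a start of HSP90AA1. It lies 165 and 112 bases before a start of HSP90AB1, and 230 and 55 bases before that of HSPA8. The other starts searched for HSP90AA1, HSP90AB1 and DNAJB1 had no match to either form. Where matches lie, annotated exons cover 147 of the 250 bases for HSP90AA1, 77 for HSP90AB1 and 23 for DNAJB1. For HSPA8 they cover all 250. The 3-unit form occurs before 0.441% of the 35116 starts of the table. DNAJB1 has the form with 2 units, 77 and 47 bases before a start, which occurs before 11.6% of starts and is contained in every 3-unit form. HSP90AB1 also has AGAACA, on the other strand, overlapping the first unit of its second element. No match to either form lies before the 2 starts of STIP1, which was also higher in VCaP-CT at both matched doses. These matches describe the letters only. HSF1 itself had 1439 ± 219 normalized counts in rechallenged VCaP-CT against 1056 ± 109 in VCaP-T at 10 nM T (SD, n = 3 each). At 0.1 nM T it had 1470 ± 122 in VCaP-CT against 1020 ± 86.3 in depleted VCaP-T. The HSF1 difference passed at 0.1 nM T (log2 fold change 0.53, adjusted p = 0.00406 from edgeR) and, at 10 nM T, without depleted VCaP-T replicate 2.

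STIP1 and ST13 encode HOP, which bridges HSP70 to HSP90, and HIP, which steadies the ADP-bound form of HSP70. STIP1 (ENSG00000168439.16, chromosome 11, 64185272 to 64204543) had 61698, 57047 and 60496 normalized counts in rechallenged VCaP-CT against 44392, 44125 and 42644 in VCaP-CT at 0.1 nM T, and 27724, 25471 and 29021 in depleted VCaP-T against 39536, 39938 and 40350 in VCaP-T at 10 nM T. It was higher with testosterone in both lines without overlap. It rose 1.37-fold on rechallenge (log2 fold change 0.45 with an SE of 0.07, adjusted p = 8e-04 from edgeR) and fell by 0.54 on depletion (SE 0.07, adjusted p = 0.00036 from edgeR). STIP1 was also higher in VCaP-CT at both matched doses, by 0.58 on the log2 scale at 10 nM T (adjusted p = 6.58e-05 from edgeR) and by 0.67 at 0.1 nM T (adjusted p = 1.66e-05 from edgeR). With each line in its own medium it differed by 0.13 on the log2 scale (95% interval -0.03 to 0.29), which passed without depleted replicate 2 (adjusted p = 0.00456). A fit on the 6 VCaP-T libraries alone gave -0.57 for STIP1 on depletion with an adjusted p of 0.0223.

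ST13 (ENSG00000100380.13, chromosome 22, 40824535 to 40857022) had its higher levels at 0.1 nM T, whichever the line. It had 9586, 9702 and 9055 normalized counts in rechallenged VCaP-CT against 11495, 11964 and 11990 in VCaP-CT at 0.1 nM T, and 8338, 11496 and 8526 in depleted VCaP-T against 6727, 6949 and 7183 in VCaP-T at 10 nM T. Each group at 0.1 nM T lay above its line's group at 10 nM T in every library. Neither difference passed 0.01 in the edgeR fit of 12 libraries: the log2 fold change was -0.32 on rechallenge (SE 0.11, adjusted p = 0.05 from edgeR) and 0.44 on depletion (SE 0.11, adjusted p = 0.0141 from edgeR). With all 12 libraries the depletion value passed by DESeq2 (0.43, adjusted p = 0.0048) and, in edgeR, with no filter on low counts (0.43, adjusted p = 0.00976). Both differences passed without depleted replicate 2, at -0.32 on rechallenge (adjusted p = 1.96e-06) and 0.28 on depletion (adjusted p = 6.83e-05). Between the lines at 0.1 nM T the log2 fold change of ST13 was 0.32 (adjusted p = 0.0317 from edgeR), and 0.49 without depleted replicate 2 (adjusted p = 2.44e-08). ST13 was 1.36-fold higher in rechallenged VCaP-CT than in VCaP-T at 10 nM T (adjusted p = 0.00707 from edgeR), a call that 9 of the 12 fits with 1 library left out did not keep (adjusted p 0.0127 to 0.0333). It was 1.70-fold higher in VCaP-CT at 0.1 nM T than in VCaP-T at 10 nM T (adjusted p = 0.000134 from edgeR). The files hold 17 genes named as ST13 pseudogenes, whose counts together came to 39.8 to 54.9% of the ST13 count, and fragments that fit several places were not counted, so its level is uncertain. With their counts added to ST13, the depletion value was 0.40 (adjusted p = 0.00909 from edgeR) and that between the lines at 0.1 nM T was 0.38 (adjusted p = 0.00494), and both passed.

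DNAJB1 (ENSG00000132002.7, chromosome 19, 14514770 to 14529770), an HSP40 that stimulates HSP70, had 5065, 4823 and 5182 normalized counts in rechallenged VCaP-CT against 3909, 3717 and 3682 in VCaP-CT at 0.1 nM T. It had 3643, 3803 and 3637 in depleted VCaP-T against 4421, 4446 and 4451 in VCaP-T at 10 nM T. Its order of groups was that of FKBP5 with smaller steps, apart from the 0.1 nM T groups, which overlapped. It rose 1.33-fold on rechallenge (log2 fold change 0.41 with an SE of 0.06, adjusted p = 0.000528 from edgeR). On depletion its log2 fold change was -0.26 (adjusted p = 0.0121 from edgeR), and -0.29 without depleted replicate 2 (adjusted p = 6.65e-05). The depletion value passed with all 12 libraries by DESeq2 (-0.28, adjusted p = 1.07e-05) and, in edgeR, with the size factors of DESeq2 (-0.28, adjusted p = 0.00971). With each line in its own medium it was lower in VCaP-CT by 0.24 on the log2 scale with an adjusted p of 0.00979 from edgeR, and 11 of the 12 fits with 1 library left out did not keep that call (adjusted p up to 0.0491). Between the lines at 10 nM T its log2 fold change was 0.18 (adjusted p = 0.0433 from edgeR), which passed without depleted replicate 2 (adjusted p = 0.000833). This difference also passed by DESeq2 with all 12 libraries (0.18, adjusted p = 0.00482).

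PTGES3 encodes p23, which closes the HSP90 complex around the receptor, and BAG1 a nucleotide exchange factor that releases clients from HSP70. PTGES3 (ENSG00000110958.15, chromosome 12, 56663341 to 56688408) had 20788, 19722 and 18694 normalized counts in rechallenged VCaP-CT, 16911, 17703 and 17900 in VCaP-CT at 0.1 nM T, 16708, 27617 and 17538 in depleted VCaP-T, and 20039, 20405 and 21254 in VCaP-T at 10 nM T. BAG1 (ENSG00000107262.20, chromosome 9, 33247820 to 33264720) had 2772, 2618 and 2750 in rechallenged VCaP-CT, 2662, 2647 and 2547 in VCaP-CT at 0.1 nM T, 2515, 5090 and 2716 in depleted VCaP-T, and 2712, 2766 and 2790 in VCaP-T at 10 nM T. Outside depleted replicate 2 the groups lay close together for BAG1. For PTGES3 every remaining library at 0.1 nM T (16708 to 17900) lay below every library at 10 nM T (18694 to 21254). Neither gene passed the edgeR test in any comparison with 12 libraries, where the shared spread was wide: the 95% interval of the difference between the lines at 10 nM T was -0.39 to 0.27 for PTGES3 and -0.46 to 0.42 for BAG1, on the log2 scale. Without depleted replicate 2, PTGES3 rose on rechallenge by 0.17 (adjusted p = 0.0023 from edgeR) and fell on depletion by 0.27 (adjusted p = 0.000223 from edgeR) (log2 fold change 0.00 on depletion with that library). With each line in its own medium PTGES3 was at -0.23 (adjusted p = 0.244 from edgeR), which passed without that library (adjusted p = 0.000107). BAG1 still passed nowhere, with -0.08 on depletion (95% interval -0.18 to 0.03). The 5 genes named as PTGES3 pseudogenes held 10.0 to 15.9% as many counts as PTGES3.

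**Figure D2:**
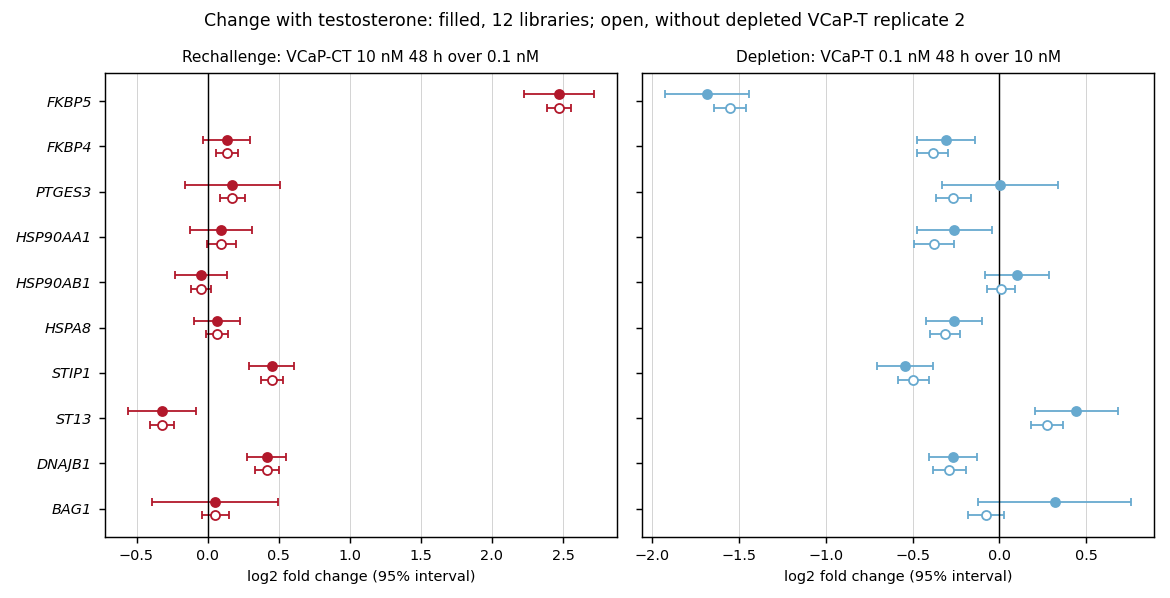
Log2 fold change of each chaperone gene with its 95% interval on rechallenge of VCaP-CT (10 nM T over 0.1 nM T) and on depletion of VCaP-T (0.1 nM T over 10 nM T); filled points are the fit of 12 libraries and open points the fit without depleted VCaP-T replicate 2. FKBP5 stands apart at 2.47 and -1.68, STIP1 and DNAJB1 are next on rechallenge, and the intervals narrow without that library.

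In the fit of 12 libraries 3 of the 10 genes (FKBP5, STIP1 and DNAJB1) rose on rechallenge and none fell, beside 14.3% of all genes tested that passed (7.07% higher and 7.19% lower). On depletion 2 fell (FKBP5 and STIP1) and none rose, beside 9.97% of all genes (3.83% lower and 6.15% higher). Depletion called 1 higher and 7 lower without depleted replicate 2, beside 14.4% and 12.6% of all genes, and rechallenge 5 higher and 1 lower, beside 19% and 17.6%. The groups did not overlap for 8 members on rechallenge and 6 on depletion, beside 55.7% and 38% of all genes. The median log2 fold change of the members was 0.11 on rechallenge (all genes -0.02) and -0.26 on depletion (all genes 0.04). At an unadjusted p under 0.05, 1 member (ST13) was lower on rechallenge and 1 higher on depletion, and DESeq2 called 0 and 1. In the other direction FKBP5, STIP1 and DNAJB1 met that cutoff in both comparisons, and FKBP4, HSP90AA1 and HSPA8 on depletion. No share of all genes at that cutoff is given, here or below. On depletion DESeq2 called 5 members lower, beside 2760 of 28420 genes that passed in either direction. FKBP5 was the 1 member to reach the study's thresholds on rechallenge and on depletion. On rechallenge 5.14% of genes tested met them (1.83% as higher), and on depletion 3.14% (0.678% as lower).

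Between the lines, 7 members were higher in VCaP-CT at 10 nM T and none lower, beside 25.2% of genes that passed, 12% as higher and 13.2% as lower. At 0.1 nM T 5 were higher (FKBP4, HSPA8, STIP1, HSP90AA1 and HSP90AB1) and none lower, beside 29.5% that passed, 13% as higher and 16.4% as lower. The members' median log2 fold change was 0.47 at 10 nM T and 0.38 at 0.1 nM T, where all genes had 0.00 and -0.02. With each line in its own medium, 4 were higher in VCaP-CT (FKBP4, ST13, HSPA8 and HSP90AB1) and 2 lower (FKBP5 and DNAJB1), beside 30.6% of all genes (14.8% higher and 15.7% lower). The groups did not overlap for 8 members at 10 nM T (61.7% of all genes), 5 at 0.1 nM T (52.3%) and 10 in the own media (69%). At an unadjusted p under 0.05, as with DESeq2, the count of members lower in VCaP-CT at a matched dose was also 0. The members higher at that cutoff then also included DNAJB1 at 10 nM T and ST13 at 0.1 nM T. The fit without depleted replicate 2 called 8 members higher at 10 nM T and 0 lower, beside 24.7% and 23.2% of all genes. At 0.1 nM T it called 6 higher and 1 lower (FKBP5), beside 23.2% and 24.4%, and in the own media 6 higher and 3 lower, beside 26.7% each. The comparisons share groups, so these counts are not independent of each other. For the difference between the 2 testosterone responses, no member passed in the edgeR fit of 12 libraries, beside 0.965% of all genes (0.804% with a larger and 0.162% with a smaller response in VCaP-CT), while 1 member, FKBP5, had an unadjusted p under 0.05 and was the 1 called by DESeq2 (adjusted p = 0.000121). Leaving out depleted replicate 2, 1 member (FKBP5) had the larger and 2 (HSPA8 and FKBP4) the smaller response in VCaP-CT, beside 5.62% and 1.77% of all genes.

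**Figure D3:**
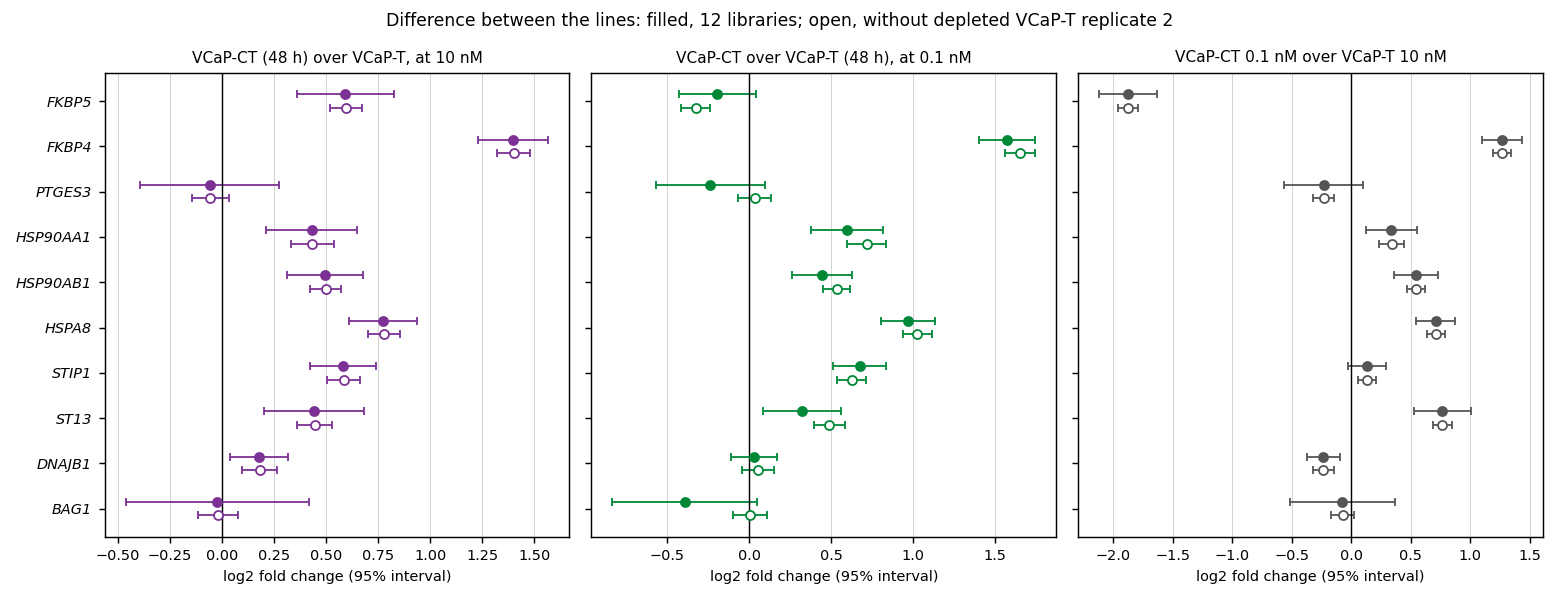
Log2 fold change of VCaP-CT over VCaP-T for each chaperone gene with its 95% interval, at 10 nM T, at 0.1 nM T and with each line in its own medium; filled points are the fit of 12 libraries and open points the fit without depleted VCaP-T replicate 2. FKBP4 lies between 1.26 and 1.57 in all 3 panels, whereas FKBP5 is at 0.59, -0.19 and -1.88.

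Per kilobase of exon the members covered a wide range of levels. HSP90AB1 was the highest in every group, with 1056 CPM per kb in rechallenged VCaP-CT, 1092 in VCaP-CT at 0.1 nM T, 804 in depleted VCaP-T and 749 in VCaP-T at 10 nM T, and BAG1 was the lowest, at 10.5 to 13.8. HSPA8 followed, with 651 in rechallenged VCaP-CT, 622 in VCaP-CT at 0.1 nM T, 318 in depleted VCaP-T and 381 in VCaP-T at 10 nM T. STIP1 was next in all groups but depleted VCaP-T, with 364 in rechallenged VCaP-CT, 266 in VCaP-CT at 0.1 nM T and 243 in VCaP-T at 10 nM T. In depleted VCaP-T STIP1 (167 ± 10.9) and PTGES3 (172 ± 50.7) did not differ beyond their spread. FKBP5 changed its place between groups. It stood above ST13 in rechallenged VCaP-CT (75.6 ± 1.64 against 64.6 ± 2.36) and below DNAJB1 in VCaP-CT at 0.1 nM T (13.7 ± 0.185 against 29.1 ± 0.945).

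**Figure D4:**
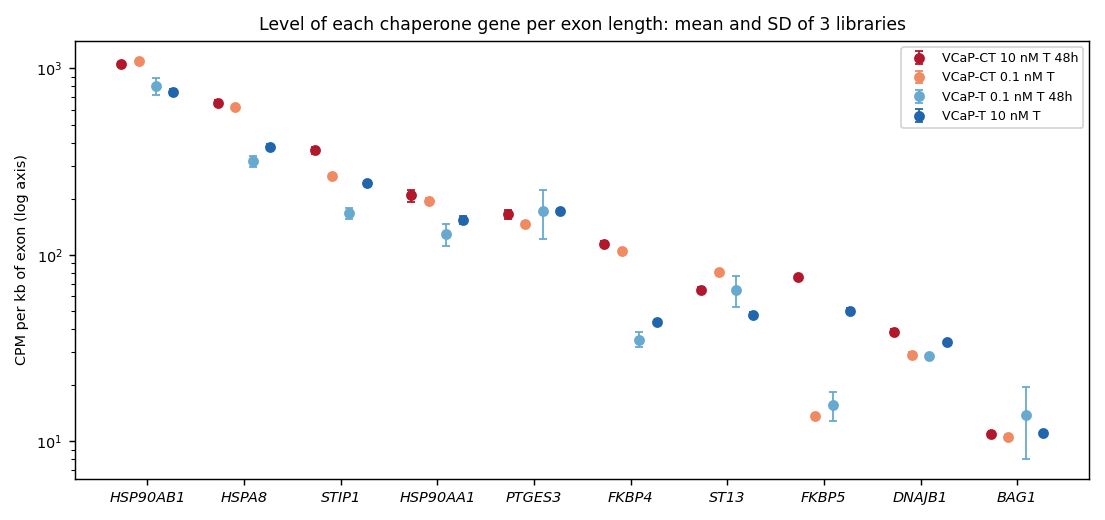
Level of each chaperone gene in CPM per kilobase of exon on a log axis, mean and SD of 3 libraries for each of the 4 groups. The genes run from HSP90AB1 at 749 to 1092 down to BAG1 at 10.5 to 13.8, and FKBP5 covers the widest range between groups on this axis, 13.7 to 75.6.

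The genes most like FKBP5 over the 12 libraries were looked for among 9520 other genes with a mean of at least 10 CPM. The highest Pearson r of log2 CPM were those of TRIB2 (0.997), CALU (0.995), PSMD11 (0.994), VPS26B (0.991) and JPH1 (0.991). TRIB2, a pseudokinase, had 2331 ± 55.6 normalized counts in rechallenged VCaP-CT against 588 ± 30.3 in VCaP-CT at 0.1 nM T, and 682 ± 47.8 in depleted VCaP-T against 1634 ± 25.3 in VCaP-T at 10 nM T (SD, n = 3 each). Of the members, DNAJB1 had 0.952 with FKBP5, STIP1 0.674 and ST13 -0.576. The 12 points are 4 groups of 3, so these coefficients describe the order of the groups, and no p is given.

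Wider lists were read for comparison. In the fit of 12 libraries 3.83% of all genes fell and 6.15% rose on depletion, and 7.07% rose and 7.19% fell on rechallenge. Between the lines 12% were higher and 13.2% lower in VCaP-CT at 10 nM T, and 13% and 16.4% at 0.1 nM T. The counts of the lists in that fit stand beside these shares. Of 23 other HSP90 cochaperones 22 were tested. On depletion 1 fell, PPP5C, a phosphatase that binds HSP90 (log2 fold change -0.39, adjusted p = 0.00208 from edgeR), and on rechallenge 1 rose, FNIP2, which slows the ATPase of HSP90 (log2 fold change 0.79, adjusted p = 0.00387 from edgeR). The other 20 passed in neither of these comparisons. In each, 4.55% of the list passed, beside 9.97% of all genes on depletion and 14.3% on rechallenge. At 10 nM T 3 were higher in VCaP-CT, the immunophilin PPID (log2 fold change 0.66), FNIP2 (0.64) and TOMM34 (0.42), and 2 lower, the kinase cochaperone CDC37 (-0.46) and PPP5C (-0.26). At 0.1 nM T PPID, TOMM34 and CHORDC1 were higher and CDC37 lower. The list's median was -0.09 on depletion, 0.10 on rechallenge and 0.15 between the lines at 10 nM T, against 0.04, -0.02 and 0.00 over all genes. With depleted replicate 2 left out, 8 of the 22 fell and 1 rose on depletion, 6 rose and 1 fell on rechallenge, and 9 were higher and 5 lower in VCaP-CT at 10 nM T. In that fit 12.6% of all genes fell and 14.4% rose on depletion, 19% rose and 17.6% fell on rechallenge, and 24.7% were higher and 23.2% lower at 10 nM T, and the counts of the lists below without that library stand beside these shares.

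Of 20 other genes of the cytosolic HSP70 system 17 were tested. HSPH1 and HSPA4, the HSP110-type exchange factors of HSP70, were the 2 that changed with testosterone in both lines. HSPH1 had 3406 ± 230 normalized counts in rechallenged VCaP-CT against 2636 ± 120 in VCaP-CT at 0.1 nM T, and 1556 ± 66.4 in depleted VCaP-T against 2596 ± 64.9 in VCaP-T at 10 nM T (log2 fold changes 0.37 and -0.74, adjusted p = 0.00326 and 4.09e-05 from edgeR). HSPA4 rose by 0.39 on rechallenge and fell by 0.34 on depletion, and it was higher in VCaP-CT by 0.98 at 10 nM T and 0.93 at 0.1 nM T on the log2 scale (adjusted p = 1.05e-06 and 1.37e-06 from edgeR). At 10 nM T HSPH1 was higher too and BAG4 lower, and at 0.1 nM T HSPH1, BAG5 and DNAJA1 were higher. Without depleted replicate 2, 8 of the 17 fell on depletion and none rose, and on rechallenge 9 rose and 1 fell. HSPA1A and HSPA1B, near-identical stress-inducible HSP70 genes, had no counts in any library, as did HSPA1L. Fragments that fit several places were left out, so nothing can be read from these 3 or from BAG6, which had at most 3 counts.

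Among 11 tested of 13 other FKBP genes, FKBP14, an FKBP of the endoplasmic reticulum, was the 1 that fell on depletion (log2 fold change -0.76, adjusted p = 0.000633 from edgeR). It rose on rechallenge (0.54), with FKBP1B (1.12) and FKBP11 (0.53), while FKBP10 fell by 0.56. FKBP1A, the target of rapamycin and tacrolimus, was higher in VCaP-CT at both doses, by 0.49 at 10 nM T and 0.46 at 0.1 nM T on the log2 scale, and FKBP9 lower, by 0.74 at 10 nM T (adjusted p = 0.0022 and 0.000297 at 10 nM T from edgeR). FKBP1B was low throughout, with 57.8, 65.5 and 59.7 normalized counts in rechallenged VCaP-CT against 30.8, 32.2 and 21.0 in VCaP-CT at 0.1 nM T. In the fit without depleted replicate 2, 2 of the 11 fell and 1 rose on depletion, and 5 rose and 2 fell on rechallenge.

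**Figure D5:**
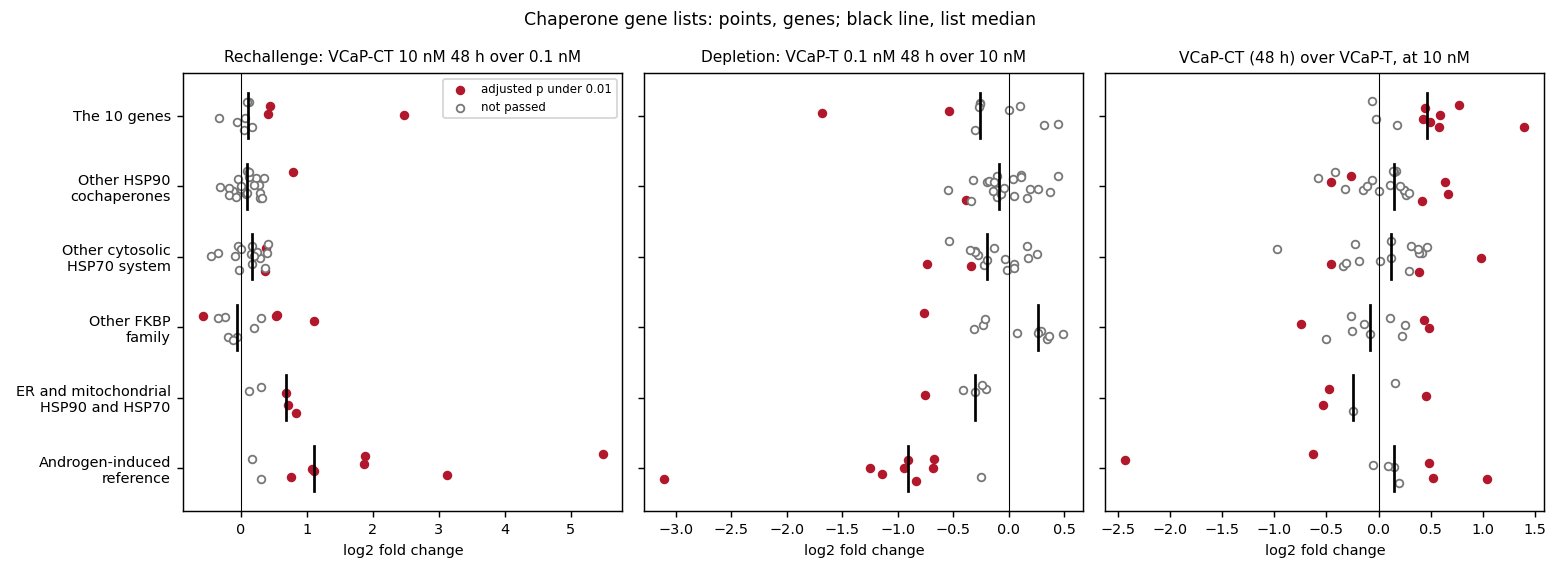
Log2 fold change of every tested gene of 6 lists on rechallenge, on depletion and between the lines at 10 nM T; each point is a gene, filled when its adjusted p was under 0.01, and the black line is the list median. In the androgen-induced list 7 of 9 genes passed on rechallenge and 8 of 9 on depletion, against 3 and 2 of the 10 chaperone genes, and between the lines 7 of the 10 lie above 0 and passed.

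The heat shock list, 16 tested of 21 and in part the same genes as the HSP70 list, had genes that passed in both directions between the lines. At 10 nM T 2 were higher in VCaP-CT and 3 lower, beside 12% and 13.2% of all genes. At 0.1 nM T 5 were higher and 2 lower, beside 13% and 16.4%. The small heat shock protein CRYAB had 15.0 ± 2.33 normalized counts in rechallenged VCaP-CT against 123 ± 13.1 in VCaP-T at 10 nM T (SD, n = 3 each). At 0.1 nM T it had 5.25 ± 2.91 in VCaP-CT against 138 ± 55.6 in depleted VCaP-T (log2 fold changes -3.02 at 10 nM T and -4.67 at 0.1 nM T, adjusted p = 2.24e-05 and 1.57e-06 from edgeR). HSPB8 was lower as well (-1.22 and -2.03). HSPA4 and HSPH1 were higher at both doses, and HSF1, CHORDC1 and DNAJA1 at 0.1 nM T. On depletion 2 of the 16 fell (8 without depleted replicate 2) and on rechallenge 2 rose (8 without it), in each case HSPA4 and HSPH1 in the 12 libraries. HSPA6, the most strictly inducible HSP70, had 3 to 10 counts per library.

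The list of HSP90 and HSP70 relatives in the endoplasmic reticulum and the mitochondrion held 5 genes, all tested. HSPA5 (BiP) and HSP90B1 (GRP94), which fold secreted proteins, rose on rechallenge by 0.84 and 0.72 on the log2 scale (adjusted p = 0.000237 and 0.000789 from edgeR), and HYOU1, their exchange factor, rose by 0.69 and fell by 0.76 on depletion (adjusted p = 0.00266 and 0.00214 from edgeR). HSPA5 had 51716 ± 2416 normalized counts in rechallenged VCaP-CT against 74937 ± 802 in VCaP-T at 10 nM T (SD, n = 3 each). At 10 nM T both were lower in VCaP-CT, HSPA5 by 0.54 and HSP90B1 by 0.47 (adjusted p = 0.00302 and 0.00703 from edgeR), where the cytosolic HSPA8 and both HSP90 members were higher. The mitochondrial HSPA9 was higher in VCaP-CT by 0.46 at 10 nM T, in the direction of HSPA8. With depleted replicate 2 left out, 4 of these 5 genes fell on depletion and 4 rose on rechallenge.

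Of 5 steroid receptors, clients of this machine, NR3C1 and PGR passed in at least 1 comparison. NR3C1, the glucocorticoid receptor, was lower in VCaP-CT at 10 nM T, 76.0 ± 5.97 in VCaP-CT against 652 ± 24.7 in VCaP-T (log2 fold change -3.10, adjusted p = 7.13e-08 from edgeR). PGR, the progesterone receptor, was higher, 33.0 ± 5.65 in VCaP-CT against 5.57 ± 1.82 in VCaP-T (log2 fold change 2.56, adjusted p = 0.000345 from edgeR). In a list of 7 genes known, as FKBP5 is, to respond to androgens and to glucocorticoids, PER1 rose on rechallenge, PER1 and ZBTB16 fell on depletion, and TSC22D3, ZBTB16 and KLF9 were higher in VCaP-CT at 10 nM T. TSC22D3 was 194 ± 9.03 in rechallenged VCaP-CT against 68.2 ± 9.26 in VCaP-T at 10 nM T. Of 9 androgen-induced genes set as a yardstick, 7 rose on rechallenge and 8 fell on depletion (9 and 9 without depleted replicate 2).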

How the data were processed

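The authors sequenced poly(A) RNA from TruSeq stranded libraries as paired reads on a HiSeq instrument. Their alignment used STAR 2.5.4b and GRCh38, and featureCounts 1.6.2 gave fragments per Gencode 28 gene. The deposited count values are whole numbers per gene and library. Per the file headers counting ignored the strand. Fragments fitting several genes or places were left out. A table of normalized counts made by the authors was not used here.

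From the counts, 1 model of the 4 groups was fitted with edgeR 4.0.16 in R 4.3.3 (quasi-likelihood test, TMM scaling, filterByExpr, no block) with Benjamini-Hochberg adjustment over 19162 genes. A gene passed at an adjusted p under 0.01. The study's thresholds add a size of the log2 fold change over 1 and a median difference over 13 normalized counts. The difference in response is the VCaP-CT response minus the VCaP-T response. The fit was tested on simulated data with known changes in the depleted group. Of genes changed 1.5-fold 19 of 67 passed, against 67 of 67 changed 2-fold and 66 of 66 changed 4-fold. Of 18962 unchanged genes 0 passed. A change of 1.5-fold or less may therefore be missed. Precision is limited by 3 libraries per group of 30.2 to 40.8 M counts. Libraries with the same replicate number shared no deviation: 0 of 18 pairs had deviations correlated over 0.1. This cannot show whether they were prepared together. Alternatives were DESeq2 1.42.0, its size factors, no filter, 6 libraries, a block, 1 library left out, and pseudogene counts added (chosen after seeing the data). The members and lists were chosen with earlier results of these data known. All members are described. A few genes of the lists are not reported here. From each other list, genes with the smallest p were named, up to 4 per direction, and, for likeness to FKBP5, the 5 highest r. Sequences are from RefSeq (GRCh38.p14).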

Additional observations from a re-analysis of the deposited data

Results flagged for a closer look

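In 6 genes named beside the chaperones, and in PECAM1 of the endothelial markers, the response to testosterone differed between the lines by the edgeR test of that difference. The response of VCaP-CT was the larger for KLK3 (2.19), STEAP4 (2.38), ACSL3 (0.749), TMPRSS2 (0.621) and TRIB2 (0.727), all of which went up with testosterone in both lines. LYZ, of the blood markers, had a difference of 2.12. It rose on rechallenge of VCaP-CT and had a log2 fold change of 0.05 on depletion of VCaP-T, which did not pass. PECAM1 had a difference of 2.13. Its log2 fold change was 1.72 on depletion of VCaP-T, which passed, and 0.41 on rechallenge of VCaP-CT, which did not. FKBP5 itself, at 0.79, did not pass this test with edgeR in the 12 libraries, and passed without depleted VCaP-T replicate 2, by DESeq2 and with no filter on low counts.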

How the results depend on the processing

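FKBP5, STIP1 and DNAJB1 on rechallenge, FKBP5 on depletion, and FKBP4, HSPA8 and STIP1 between the lines at both matched doses passed under every alternative run. So did FKBP5 and HSP90AB1 at 10 nM T, and FKBP5, FKBP4, HSP90AB1, HSPA8 and ST13 with each line in its own medium. Under a fit of the 6 libraries of a comparison, 1 member was lower on depletion (STIP1 no longer passed, -0.57), 1 was lower on rechallenge (ST13) and 3 were higher in VCaP-CT at 0.1 nM T (HSP90AA1 at 0.59 and HSP90AB1 at 0.44 no longer passed). PTGES3 then passed on rechallenge (0.17, adjusted p = 0.00503 from edgeR) and DNAJB1 at 10 nM T (0.16). PTGES3 (-0.25), HSP90AA1 (0.32) and STIP1 (0.11) passed with each line in its own medium. The counts of all genes that passed in these fits are given below. DESeq2 called 1 member higher and 5 lower on depletion, beside 2760 of 28420 genes that passed in either direction. It called 1 (FKBP5) with the larger response in VCaP-CT, beside 576 of 16633 in either direction. Without a filter on low counts, 1 member was higher on depletion (ST13), 1 lower with each line in its own medium, and 1 (FKBP5) had the larger response in VCaP-CT. Of the 37997 genes in that fit 2091, 6055 and 251 passed in these comparisons, in either direction. With pseudogene counts added, 1 member was higher on depletion (ST13), and ST13 also passed as higher in VCaP-CT at 0.1 nM T. Of the 19139 genes in that fit 1908 and 5629 passed in these comparisons, in either direction. With the replicate number as a block, 1 member was lower with each line in its own medium (DNAJB1 had an adjusted p of 0.0257 from edgeR), beside 5163 of 19162 genes that passed in either direction. No other call on a member changed under the block. Whether the replicate numbers pair the libraries is not known. Leaving out each library in turn gave 0 to 1 members higher and 2 to 7 lower on depletion, 3 to 5 higher and 0 to 1 lower on rechallenge, and 1 to 3 lower in VCaP-CT with each line in its own medium. It gave 0 to 1 lower at 0.1 nM T, and 0 to 1 with a larger and 0 to 2 with a smaller response in VCaP-CT. Members higher in VCaP-CT numbered 5 to 8 at 10 nM T, 5 to 6 at 0.1 nM T and 4 to 6 in the own media. Of all genes 3438 to 9415, 4178 to 9348 and 4359 to 10497 passed in these comparisons, in either direction. The log2 fold change of PTGES3 on depletion was -0.27 and passed without depleted replicate 2, and reached 0.14 with depleted replicate 1 left out. The genes that passed on depletion numbered 1911 in the fit of 12 libraries, 283 in that of 6 and 906 to 5320 with 1 library left out; those on rechallenge 2732, 6981 and 1674 to 7184. Of the difference in response 185 passed, with 576 by DESeq2, 83 under the block and 69 to 1451 with 1 library left out. The highest of each of these 3 ranges came without depleted replicate 2. Between the lines the fit of 6 libraries called 10491 genes in the own media (5857 with 12), 2932 at 0.1 nM T (5647) and 8334 at 10 nM T (4828). The cause of these shifts was not tested. With 3 libraries a group and 1 that stands apart, a change of the size that PTGES3 showed without that library was not detectable in the fit of 12.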
